A study of Mus musculus with 10 samples.

Results

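The report concerns 5 RNAs that do not code for protein, Rn45s, Malat1, Rpph1, Snhg3 and Snhg4, in cells of mouse small-intestinal crypts. They were chosen by name, 5 of the 18022 genes listed over 10 libraries, after differences between libraries in these RNAs had been seen, so their differences between plates are descriptions without a test. All are from C57Bl/6 mice, and each library is a 384-well plate with added ERCC spike-in RNA, measured by CEL-seq2, in which reverse transcription starts from stretches of A, random barcodes mark single molecules and in vitro transcription amplifies them. The groups compared were 3 libraries of doublets or triplets picked by mouth pipette after mild dissociation (codes JC68, JC71 and JC72), 2 libraries of sorted single cells with the code GK5b, and 5 libraries of sorted single cells with the code GK5a. The GK5b titles also end in G and L, in library order, and all GK5a titles also carry M2. No genotype, treatment or age is given by the labels, and the meaning of the codes is not given. Whether the 2 GK5b libraries are replicates of each other is thus not known. The experiment code and the way of collection changed together, so they cannot be told apart. The sex of the mice is not in the labels and may have changed with them. Xist, an RNA of female cells described below, was seen almost only in picked libraries.

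Only wells that held 1000 or more endogenous transcripts entered the comparisons: 501 picked wells (122, 179 and 200 per library), 525 GK5b wells (264 and 261) and 1090 GK5a wells (189 to 233). The used wells summed to 821829 to 1232614 transcripts per picked library, 4414455 to 4832581 per GK5b library and 1022859 to 2359894 per GK5a library. Median transcripts per well were 2756 to 7235, 13944 to 16427 and 3361 to 7871 in the same order of groups. No pair of used wells held identical values. All 5 RNAs were listed in 7 of the 10 tables, and 3 sorted tables (GK5b library 2, GK5a libraries 1 and 3) had no Rpph1 entry, which was read as 0.

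Ribosomal RNA is made in the nucleolus by RNA polymerase I as a long precursor, called Rn45s in mouse, which is cut into the mature ribosomal RNAs. Its gene is present in many near-identical copies, so the copy behind a read is not known. The precursor holds the sequences of the mature ribosomal RNAs, so a count of Rn45s can come from either, and they were not separated. Malat1 is a long RNA polymerase II transcript held in nuclear speckles, near pre-mRNA splicing factors, whose mature 3′ end carries no poly(A) tail. Rpph1 is the RNA of ribonuclease P, the enzyme that trims the 5′ ends of transfer RNA precursors, and is made by RNA polymerase III. Snhg3 and Snhg4 are spliced RNAs whose introns release small nucleolar RNAs. In the crypt, stem and progenitor cells divide at the base beside Paneth cells, and goblet, enteroendocrine and tuft cells and enterocytes arise from them.

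Sequences of 1 transcript each of Rpph1 and Snhg3 are shown because the assay primes on stretches of A. Neither transcript holds a long one, and that of Snhg3, but not that of Rpph1, ends beside a polyadenylation signal. The sequences were read from the GENCODE M21 transcripts of the GRCm38 (mm10) assembly. They are written 5′ to 3′ on the RNA strand, which is the minus strand for both. Rpph1 is a transcript of 1 exon and 319 bases, shown from base 20 to its 3′ end (chr14:50807449-50807748), and holds no run of A longer than 2, so nothing is in capitals. The longest run of A in the whole Snhg3 transcript used, Snhg3-204, is 4 bases. The Snhg3 gene reaches further at its 3′ end, to chr4:132348014, and its other transcripts were not searched by name. The Snhg3 stretch is the last 60 bases of a spliced transcript of 3 exons and 437 bases (chr4:132351933-132351992), and capitals mark a polyadenylation signal, ATTAAA.
Rpph1: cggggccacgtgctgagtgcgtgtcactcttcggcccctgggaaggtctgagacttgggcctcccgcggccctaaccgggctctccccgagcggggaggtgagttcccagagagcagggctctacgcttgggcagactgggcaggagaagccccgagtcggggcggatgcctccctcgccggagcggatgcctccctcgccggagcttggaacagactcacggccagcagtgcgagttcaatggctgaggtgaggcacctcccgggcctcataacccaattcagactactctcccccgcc
Snhg3: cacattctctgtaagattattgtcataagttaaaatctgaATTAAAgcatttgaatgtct

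Searched on the RNA strand only, a run of 8 A was present in 2.79% of 733155 stretches of 300 bases tiled over 131058 transcripts of that length or more, and the Rpph1 stretch has none. AATAAA or ATTAAA was present in the last 60 bases of 36.8% of those transcripts, and of the Snhg3 transcript shown, and was not present there in Rpph1. A match describes these letters and does not show where the primer bound. No sequence is printed for the other 3 RNAs.

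Rn45s, whose counts do not tell precursor from mature ribosomal RNA, was the most abundant of the 5. Its level, in transcripts per 1000000 of the library total (CPM), was 25571, 40231 and 29849 in the picked libraries, 8988 and 9259 in GK5b libraries, and 2942, 2953, 4087, 2610 and 2918 in GK5a libraries. These ranges did not overlap, with means of 31884 ± 7539 in picked (SD, n = 3), 9124 ± 192 in GK5b (n = 2) and 3102 ± 569 in GK5a libraries (n = 5). The picked mean was 3.50-fold that of GK5b and 10.3-fold that of GK5a, and the GK5b mean was 2.94-fold that of GK5a. In a library sum, fewer cells of a type and less RNA per cell cannot be told apart. Set against the spike-ins, Rn45s was at 3020, 1654 and 836 transcripts per 1000 spike-in transcripts in picked libraries, 970 and 859 in GK5b libraries, and 57.1 to 90.2 in GK5a libraries. On that scale picked library 3 lay below both GK5b libraries, and the picked and GK5b libraries all lay above those of GK5a. The median used well held 70.1, 50.1 and 185 spike-in transcripts in picked, 177 and 181 in GK5b and 187 to 528 in GK5a libraries. Whether equal amounts were added is not given here, and the part of these counts was not tested. Picked wells hold doublets or triplets, so the scale is not per cell.

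Malat1, the speckle RNA, had a different order. Its level was 685, 360 and 347 CPM in the picked libraries, 2507 and 1994 CPM in GK5b libraries, and 1400, 1559, 1480, 1354 and 977 CPM in GK5a libraries. The ranges did not overlap, with means of 464 ± 191 in picked, 2250 ± 363 in GK5b and 1354 ± 225 CPM in GK5a libraries (SD, n = 3, 2 and 5). The GK5b mean was 1.66-fold that of GK5a, and the picked mean was 0.343-fold that of GK5a. Per 1000 spike-in transcripts, Malat1 was at 80.9, 14.8 and 9.73 in picked libraries, 271 and 185 in GK5b libraries and 24.6 to 39.7 in GK5a libraries. Relative to the spike-ins, then, the picked libraries lay on both sides of GK5a and below both GK5b libraries.

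Rpph1, the RNA of ribonuclease P, was seen almost only in picked libraries. It was at 43.0, 75.5 and 132 CPM in picked libraries, from 53, 62 and 153 barcodes. The sorted libraries held 3 barcodes in GK5b library 1, 1 in GK5a library 4, 1 in GK5a library 5 and 0 in the other 4, where a count of 0 allows up to 0.680, 2.93, 1.31 and 1.40 CPM (3 counts of the total, in GK5b library 2 and GK5a libraries 1, 2 and 3). Per barcode counted, 268 in picked against 5 in sorted libraries gave a ratio of 319, with an exact 95% interval of 135 to 992 that covers counting error only. The wells with a barcode were 33 of 122, 38 of 179 and 73 of 200 in the picked libraries, 144 in all, against 5 of 1615 in sorted wells. The sorted plates were collected another way, and picked wells under 1000 transcripts held Rpph1 at 156 CPM, beside a mean of 83.3 CPM in the used picked wells, so the background of picked plates was not measured. Of the 501 picked wells, 357 had 0 barcodes, 88 had 1, 25 had 2 and 16 had 3, and the highest had 9.

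Snhg3, which hosts small nucleolar RNAs, was at 40.6, 74.2 and 68.8 CPM in picked libraries, 20.5 and 37.2 CPM in GK5b libraries, and 76.3, 67.4, 60.9, 48.5 and 68.7 CPM in GK5a libraries. The picked range overlapped that of GK5a, and GK5b lay below both. Per 1000 spike-in transcripts Snhg3 was at 4.79, 3.05 and 1.93 in picked, 2.21 and 3.45 in GK5b and 1.30 to 2.16 in GK5a libraries, so on that scale GK5b overlapped picked and lay above GK5a. Snhg4, a host of the same kind, was at 11.4, 34.1 and 50.7 CPM in picked libraries, 23.2 and 50.8 CPM in GK5b libraries, and 101, 92.8, 96.5, 105 and 95.8 CPM in GK5a libraries. Its picked and GK5b ranges overlapped, and both lay below GK5a, whose libraries varied little (98.2 ± 4.86 CPM, SD, n = 5). Per 1000 spike-in transcripts Snhg4 was at 1.34 to 1.42 in picked, 2.50 and 4.71 in GK5b and 1.79 to 2.90 in GK5a libraries, so GK5b no longer lay below GK5a. The plot of levels by library shows the 5 orders side by side.

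**Figure D1:**
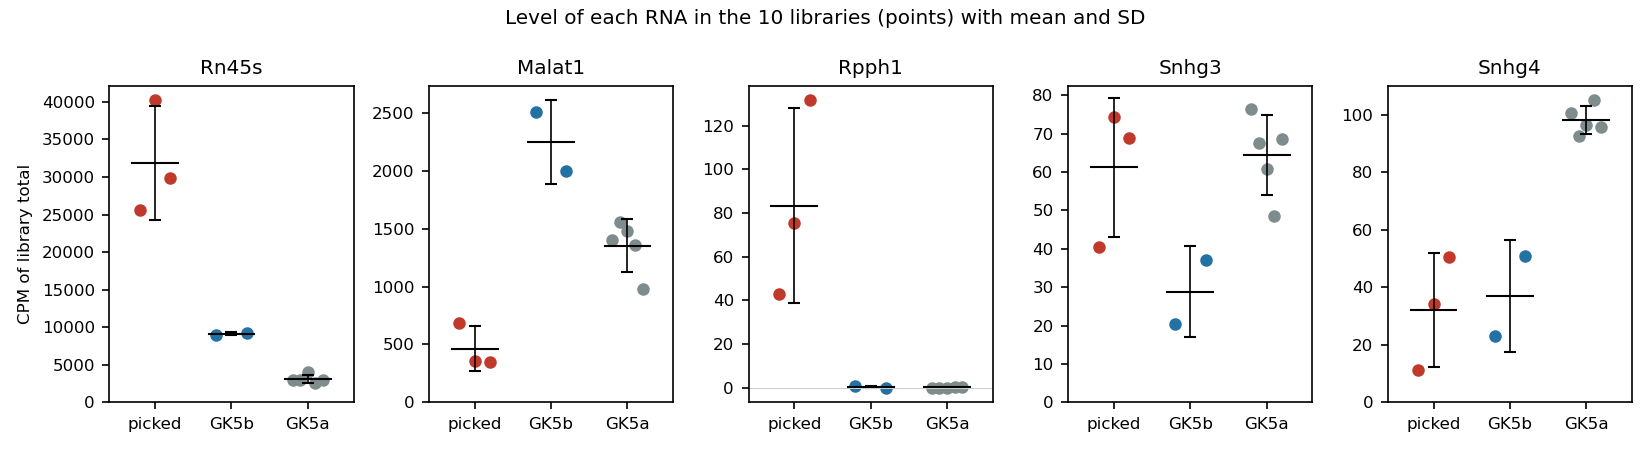
Each panel plots 1 RNA in CPM of the library total (linear axis) for picked, GK5b and GK5a libraries, with 1 point per library and the mean and SD as lines. Rn45s was highest in picked libraries (25571 to 40231), Malat1 in GK5b libraries (1994 and 2507), Rpph1 was near 0 outside picked libraries, and Snhg4 was highest in GK5a libraries (92.8 to 105).

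The plate difference in Rn45s ran through the wells and was not carried by a few. The median well of all GK5a wells was at 1545 CPM and the highest 10% of those wells began at 10575 CPM. In picked libraries 99.6% of wells lay above that median (99.2% to 100% by library) and 75.0% lay above 10575 CPM. In GK5b libraries 85.9% lay above the median (84.3% and 87.5%) and 32.6% above 10575 CPM. In unclassed wells alone, defined below, the shares above the median of such GK5a wells were 100% in picked and 90.2% in GK5b libraries. Within each library the level still varied widely: the 10% of wells with the most Rn45s transcripts held 42.5% to 51.8% of them in picked, 40.4% and 49.3% in GK5b and 45.2% to 64.9% in GK5a libraries.

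The Malat1 differences were spread unevenly over wells. In picked libraries 22.8% of wells lay above the GK5a median of 908 CPM (17.5% to 32.0%) and 0.820% above 4399 CPM, where the highest 10% of GK5a wells began. In GK5b libraries 61.5% lay above the median (55.9% and 67.0%), a shift of the middle that was small beside that of Rn45s, and 18.8% lay above 4399 CPM. Goblet wells made up 201 of 264 and 109 of 261 GK5b wells, against 197 of 1090 in GK5a, and the part of that makeup in the upper tail was not tested. With every well thinned to 2000 transcripts and shallower wells left out, 51.3% of GK5b wells (59.4% and 43.1%) and 39.0% of GK5a wells lay above the median of the thinned GK5a wells, a whole number of transcripts at which many wells tie.

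**Figure D2:**
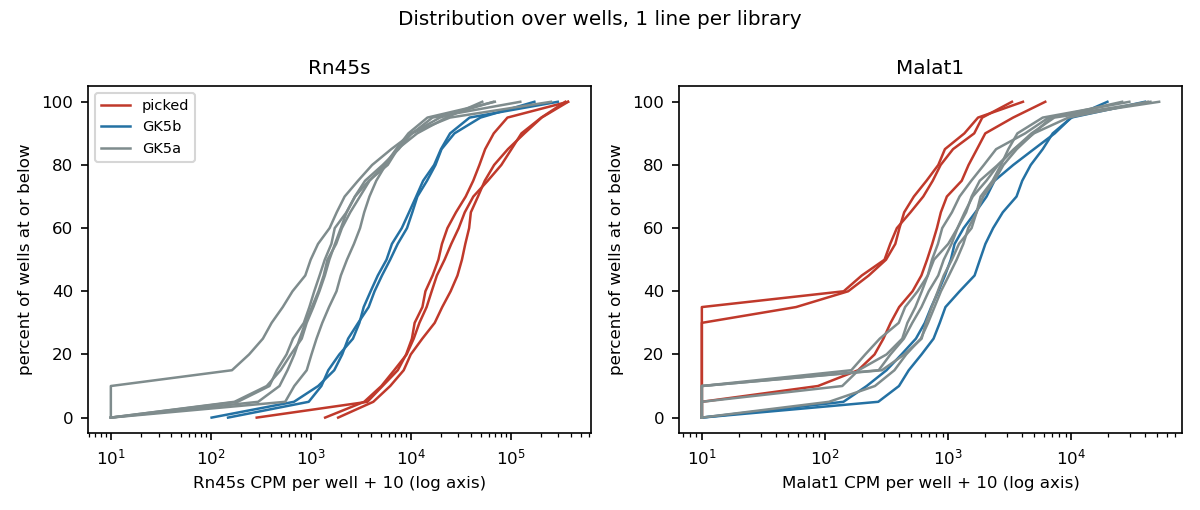
The curves give, for each library, the percent of wells (vertical axis) at or below a level of Rn45s or Malat1 in CPM per well plus 10 (horizontal log axis). For Rn45s the picked curves lie right of both sorted groups over nearly all wells (99.6% above the GK5a median). For Malat1 the picked curves lie mostly to the left. Among its lowest wells picked library 1 lies right of some GK5a curves (288 CPM at 25% of wells, against 268 CPM in GK5a library 2). The GK5b curves for Malat1 reach higher at the top. The highest 10% of wells begin at 7057 and 7325 CPM in GK5b and 3639 to 4953 CPM in GK5a libraries.

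For the scarcer RNAs the wells were compared after thinning each to 2000 transcripts, because a deeper well has more chances of a barcode. A thinned level of 1 barcode is then 1 transcript in 2000, so these shares are low by construction. Rpph1 was found in 67 of 383 picked wells (16.8% ± 5.69 over libraries, SD, n = 3), 1 of 504 GK5b wells and 1 of 930 GK5a wells. Snhg3 was found in 41 of 383 picked, 23 of 504 GK5b and 109 of 930 GK5a wells. Snhg4 was found in 30 of 383 picked (7.66% ± 2.70), 34 of 504 GK5b (6.78% ± 2.96) and 187 of 930 GK5a wells (20.1% ± 2.87). Thinning left out 118 picked, 21 GK5b and 160 GK5a wells, and the order of the groups for Snhg4 was that of the CPM against GK5a. Unthinned, Snhg4 was found in 9.02% to 14% of picked, 24.2% and 38.7% of GK5b and 31.8% to 44.2% of GK5a wells.

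The summed shares of Rn45s and Malat1 were larger in the shallower wells of each library. Over the wells of a library, the slope of log2 Rn45s share on log2 transcripts per well was below 0 in 10 of 10 libraries, with means of -0.53 in picked, -0.35 in GK5b (-0.50 and -0.20) and -0.52 in GK5a libraries. Malat1 also had a slope below 0 in 10 of 10, with means of -0.51, -0.28 and -0.46 in the same order of groups. With the wells of each library split by depth into 3 equal sets, Rn45s averaged, from shallow to deep, 66209, 46015 and 22722 CPM in picked libraries, 16203, 8038 and 8399 CPM in GK5b libraries and 6217, 3943 and 2408 CPM in GK5a libraries. Malat1 averaged 874, 744 and 324 CPM in picked, 3536, 2024 and 2139 CPM in GK5b and 2743, 1608 and 1073 CPM in GK5a libraries. The shallow set was above the deep set in 10 of 10 libraries for both RNAs. This holds for the sums and not for the median well of Malat1 in picked libraries 2 and 3. That well had 0 CPM in both shallow sets, against 190 and 288 CPM in the deep sets (Spearman rho of share with depth -0.02 and 0.039). In those shallow sets, at median depths of 1465 and 1693 transcripts, only 45.0% and 44.8% of wells held a Malat1 transcript. A median of 0 there is thus in part a limit of counting, which also enters the ranks. The Rn45s levels did not close up with depth: the deep picked set, with a mean of median depths of 10750 transcripts, stood above the shallow GK5a set, at 2341 transcripts.

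Rpph1 had slopes below 0 in the 3 picked libraries (mean -0.53), with depth sets at 178, 136 and 54.7 CPM from shallow to deep. This fall too holds for the sums and not for the ranks of wells. Spearman rho of Rpph1 share with depth was 0.126, 0.119 and 0.0673 in those libraries. A shallow well has fewer chances of a barcode, so these ranks follow detection as well as share. In picked library 1, Rpph1 was found in 19.5% of shallow and 34.2% of deep wells. Snhg3 had no common direction, with mean slopes of -0.04 in picked and -0.02 in GK5a libraries, and slopes of 0.50 and -0.047 in the GK5b libraries. Snhg4 had a slope below 0 in 5 of 5 GK5a libraries (mean -0.27) and slopes on both sides of 0 in picked libraries. In the GK5a libraries its Spearman rho with depth was above 0, at 0.122 to 0.219, where detection again rose with depth. Within unclassed wells the slope of Rn45s was -0.01 and 0.17 in the GK5b libraries. That of Malat1 was 0.16 and 0.44 in the GK5b libraries and -0.21 to -0.10 in those of GK5a, so that the depth relations over all GK5b wells were not those of their unclassed wells. All slopes across wells are descriptions: a share has the well's total in its denominator, and wells of 1 library are not replicates. At the limit of 1000 transcripts, picked wells just inside it (up to 1500 transcripts, 69 wells) had 74045 CPM of Rn45s and those just outside (500 or more, 67 wells) had 91858 CPM. These values were 59007 CPM (10 wells) and 17309 CPM (17 wells) in GK5b, and 10634 CPM (93 wells) and 16259 CPM (128 wells) in GK5a.

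**Figure D3:**
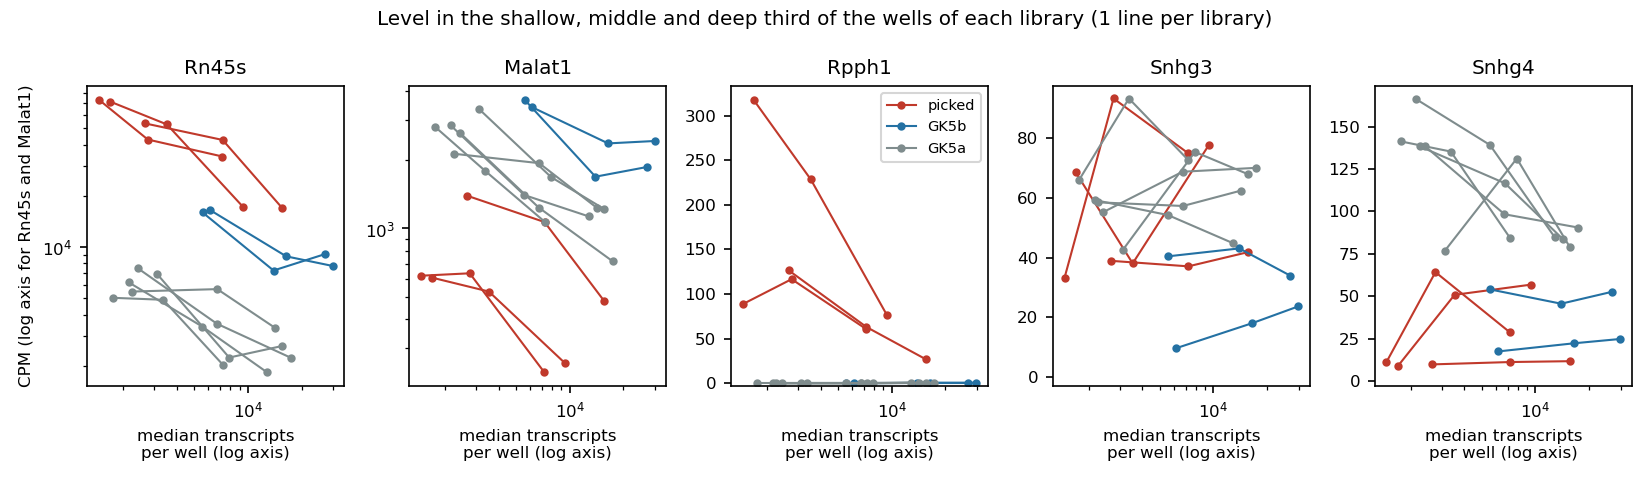
Each line is 1 library, with its wells split into shallow, middle and deep sets of equal size; the horizontal log axis is the median number of transcripts per well and the vertical axis the CPM of the set (log for Rn45s and Malat1, linear for the others). Rn45s and Malat1 were higher in the shallow than in the deep set of 10 of 10 libraries, and picked lines for Rn45s stay above the GK5a lines at all depths.

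Wells were put in classes by the share of their transcripts from fixed marker lists that hold none of the 5 RNAs: Paneth at 10% or more, goblet 2%, enteroendocrine 1%, tuft 0.5%, enterocyte 2% and immune 0.5%, and unclassed below all of these. The thresholds were set after seeing the data, 12.9% of sorted wells lay within a factor of 1.5 of one, and the classes are ranges of a score. Paneth, goblet, enteroendocrine, tuft, enterocyte and immune wells numbered 23, 83, 12, 1, 50 and 21 in picked, 5, 310, 12, 0, 20 and 6 in GK5b and 33, 197, 38, 26, 174 and 16 in GK5a libraries, and 311, 172 and 606 were unclassed. Among the 10 genes with the largest fitted rise in each class, 8 (Paneth), 9 (goblet), 7 (enteroendocrine), 7 (tuft), 5 (enterocyte) and 7 (immune) were its own markers and 0 were another class's. The wells were classed by these same markers, so that count follows from the classing and is no test of it. Counts were summed per class and library in sorted wells, with at least 5 wells, and each class was tested against the unclassed wells of the same libraries with limma on log2(CPM + 1). Whether the libraries stem from different animals is not in the labels. The library was a block in the fit, and all classes were fitted together. The p-values thus rest on how unevenly the differences of all classes ran across libraries, and not on the unevenness of the class named. Some of that unevenness may be technical.

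Of 24 pairs of RNA and class tested, 6 were higher than in unclassed wells, 8 were lower and 10 did not pass. The 6 rises were Rn45s in Paneth wells and Malat1 in 5 classes. Among 8112 genes the share called higher was 1.81% for Paneth, 3.32% for goblet, 3.98% for enteroendocrine, 2.44% for tuft, 4.17% for enterocyte and 2.42% for immune wells. The share called lower was 54.5%, 1.12%, 31.0%, 22.8%, 5.61% and 44.6% in the same order of classes, and 56.3%, 4.44%, 35.0%, 25.3%, 9.78% and 47.0% in either direction. Over all genes the median log2 change was -2.30 in Paneth, -0.23 in goblet, -1.29 in enteroendocrine, -1.24 in tuft, -0.18 in enterocyte and -2.16 in immune wells, and library totals in place of TMM scaling (trimmed mean of M values) moved it by -0.28 in Paneth wells to 0.48 in immune wells. The 8 falls were Rn45s in tuft wells, Snhg3 in Paneth, enteroendocrine and immune wells, and Snhg4 in those 3 and in tuft wells. Rpph1 was too scarce in sorted wells to test.

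Paneth wells were rich in Rn45s. The 4 libraries with enough Paneth wells, all GK5a, had 9372, 16143, 9962 and 32270 CPM in Paneth wells, against 1566 to 2941 CPM in their unclassed wells. Paneth wells were higher in 4 of 4 libraries, with no overlap, at a ratio of means of 7.72 (16937 ± 10671 against 2193 ± 588 CPM, SD, n = 4 each). The log2 fold change was 3.24 ± 0.30 SE (limma, adjusted p = 1.85e-10), and 2.68 with totals in place of TMM. Median depth was 3945 transcripts in GK5a Paneth wells and 6829 in unclassed ones, so the Paneth wells were also shallower, and the part of depth was not tested.

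Tuft wells were poor in Rn45s. In 4 GK5a libraries they had 554, 1487, 1879 and 1226 CPM, against 1566 to 3700 CPM in unclassed wells, and were lower in 4 of 4 libraries (log2 fold change -1.67 ± 0.30 SE, limma adjusted p = 9.17e-05). The tuft pools held 5 to 8 wells each, the share of all genes called lower was 22.8%, and with totals the Rn45s value was -1.12 (limma adjusted p = 0.00722). Goblet wells had 5688 ± 3088 CPM against 4102 ± 2851 in unclassed wells, higher in 6 of 7 libraries but not past the test (limma adjusted p = 0.124). Rn45s did not pass in enteroendocrine (limma adjusted p = 0.249), enterocyte (0.251) or immune wells (0.0826). Its fitted values of -0.38 in enteroendocrine and -0.69 in immune wells were 0.13 and 0.085 with totals, and the ratios of mean CPM were above 1, so no direction is given for them.

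Malat1 was on average lowest in unclassed wells, which hold the stem and progenitor cells among others. Enteroendocrine wells, of the hormone-secreting cells, had 1899 to 11070 CPM over 6 libraries, against 659 to 1644 CPM in unclassed wells, and were higher in 6 of 6 (5644 ± 3231 against 964 ± 353 CPM, log2 fold change 1.88 ± 0.27 SE, limma adjusted p = 1.45e-06). Tuft wells, of the chemosensory cells, had 5180, 5740, 5629 and 2511 CPM, against 743 to 987 CPM in unclassed wells, higher in 4 of 4 (log2 fold change 1.71, limma adjusted p = 1.03e-04). Goblet wells, of the mucus-secreting cells, had 2237 ± 493 CPM against 1010 ± 344 in unclassed wells and were higher in 7 of 7 libraries (log2 fold change 1.31, limma adjusted p = 6.92e-04). Paneth wells had 3337, 1529, 1241 and 1381 CPM, against 659 to 887 CPM in unclassed wells, higher in 4 of 4 (log2 fold change 1.56, limma adjusted p = 1.32e-04). All 4 classes were also shallower than unclassed wells. Median depth in GK5a was 3274 transcripts in enteroendocrine, 3945 in Paneth, 5024 in goblet and 5276 in tuft wells, against 6829 in unclassed ones. In GK5b it was 12816 in goblet and 20539 in unclassed wells. The part of depth was not tested.

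Enterocyte wells had 1643 ± 307 CPM of Malat1 against 1010 ± 344 in unclassed wells, higher in 6 of 7 libraries (log2 fold change 0.88, limma adjusted p = 0.0202). That call was lost with totals in place of TMM (adjusted p = 0.053), without GK5a library 2 (0.0647) and without GK5a library 5 (0.0913). Immune wells were higher in 3 of 3 libraries (3085 ± 1006 against 1124 ± 466 CPM) but did not pass (limma adjusted p = 0.0797). With totals the immune value passed (log2 fold change 1.5, limma adjusted p = 6.3e-04), as it did without GK5a library 1 (0.046) or 4 (0.0355). With totals the log2 fold change of Malat1 was 2.39 in enteroendocrine, 2.26 in tuft and 1.00 in Paneth wells.

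The snoRNA hosts ran the other way, and were on average highest in unclassed wells. Snhg4 was at 29.2 ± 13.9 CPM in goblet wells and 122 ± 42.2 in unclassed wells (SD, n = 7 each), lower in 7 of 7 libraries, with 99 barcodes where the unclassed share would give 657. It was at 18.0 ± 10.3 CPM in enterocyte wells, lower in 7 of 7, with 43 barcodes where 266 would be given. The SE of the log2 fold change of Snhg4 was 0.94 in both classes, since the fit shared its spread over all classes. Neither passed the test (limma adjusted p = 0.385 and 0.0696), and both did with a pseudocount of 5 CPM (0.0429 and 0.00239, with 2.34% and 9.32% of all genes then called lower) and of 100 CPM, chosen after seeing the data (7.24e-06 and 1.88e-07, with 10.3% and 15.7%). The enterocyte value of Snhg4 also passed with doubled thresholds (0.00635) and in wells of at least 2000 transcripts (0.0107). Snhg3 was at 36.2 ± 18.5 CPM in goblet and 22.4 ± 15 in enterocyte wells, against 73.1 ± 23.7 in unclassed wells, lower in 7 of 7 libraries for both and not past the test (limma adjusted p = 0.917 and 0.173). The enterocyte value of Snhg3 passed with a pseudocount of 5 CPM (0.0371) and in wells of at least 2000 transcripts (0.025), and with 100 CPM both passed (0.0343 in goblet and 6.39e-04 in enterocyte wells).

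In Paneth wells 0 transcripts of Snhg3 and of Snhg4 were counted among 162179, where the unclassed share would give 14 and 24. Against 3 counts, Snhg3 was at least 4.67-fold and Snhg4 at least 8.0-fold lower than in unclassed wells. The share of all genes called lower was 54.5% in Paneth, 31.0% in enteroendocrine and 44.6% in immune wells, so the falls of Snhg3 and Snhg4 there are not set apart from the background of such pools. The enteroendocrine calls of Snhg3 and Snhg4 were lost without GK5a library 4 (limma adjusted p = 0.057 and 0.0914), and that of Snhg4 in tuft wells without GK5a library 1 (0.0601) and in wells of at least 2000 transcripts (0.331). The immune call of Snhg3 was lost with totals (0.101), without GK5b library 2 (0.255) and without GK5a library 2 (0.0582).

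Unclassed sorted wells were split by the summed share of stem cell markers such as Lgr5, the receptor that marks crypt base stem cells, at 0.25%. The 417 stem-marker wells had 165 ± 46.8 CPM of Snhg4, against 87.8 ± 30.4 in the other 361 unclassed wells (SD, n = 7), and were higher in 7 of 7 libraries, 1.87-fold on the means. By library the stem-marker wells had 103 and 98.2 CPM in GK5b and 171 to 218 CPM in GK5a, against 38.4 and 62.3 CPM in GK5b and 77.1 to 119 CPM in GK5a for the others. Malat1 was higher in stem-marker wells in 6 of 7 libraries (1190 ± 254 against 886 ± 473 CPM), Snhg3 in 5 of 7 and Rn45s in 4 of 7. No test was run on this split.

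**Figure D4:**
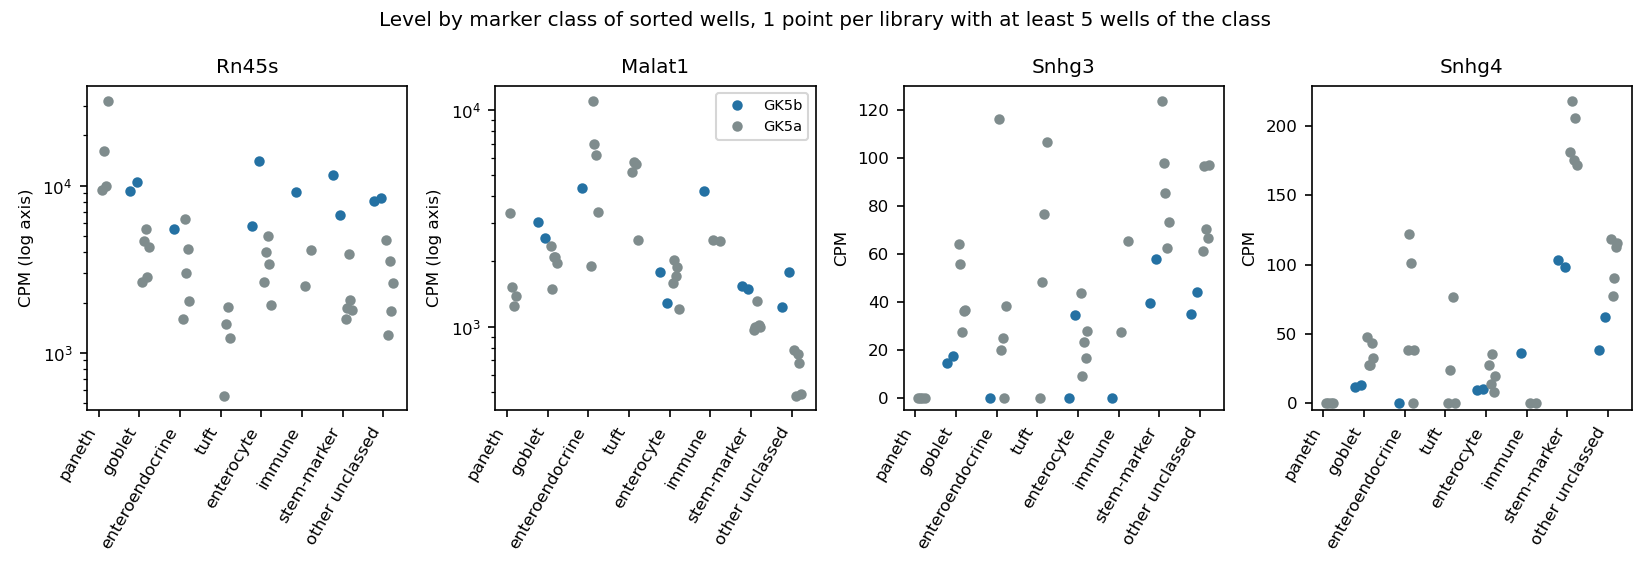
Points are libraries of sorted wells (GK5b or GK5a) with at least 5 wells of the class, in CPM of the class sum, on a log axis for Rn45s and Malat1 and a linear one for Snhg3 and Snhg4. Rn45s stands high in Paneth and low in tuft wells, Malat1 is highest in enteroendocrine and tuft wells, and Snhg4 is highest in stem-marker wells (98.2 to 218 CPM).

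The plate differences in Rn45s were also present within unclassed and goblet wells. In unclassed wells the level was 21925, 38620 and 29807 CPM in picked, 8687 and 7559 CPM in GK5b and 1566 to 3700 CPM in GK5a libraries. In goblet wells it was 18503 to 35470 CPM in picked, 9297 and 10562 CPM in GK5b and 2641 to 5521 CPM in GK5a libraries, again with no overlap, as in enterocyte wells (28447 to 40721, 5763 and 14136, and 1933 to 5035 CPM in the same order of groups). In enteroendocrine wells picked libraries had 20735 and 50477 CPM, but GK5b library 2, at 5489 CPM, lay within the GK5a range of 1591 to 6321 CPM. In immune wells the only picked library with enough wells, at 11096 CPM, was 1.21-fold above the only GK5b one, at 9176 CPM, against 2526 and 4142 CPM in GK5a. In Paneth wells the picked libraries had 29999, 75673 and 94103 CPM and the lowest of them overlapped the GK5a range of 9372 to 32270 CPM. A picked well can hold cells of several types, so its class names the markers past the threshold and not a single cell.

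The Malat1 differences held less evenly. In goblet wells it was at 302 to 917 CPM in picked, 3059 and 2578 CPM in GK5b and 1496 to 2351 CPM in GK5a libraries, without overlap. In unclassed wells the picked values of 697, 311 and 308 CPM overlapped those of GK5a (659 to 987 CPM) through the first picked library, while GK5b lay above (1287 and 1644 CPM). In enterocyte wells GK5b (1794 and 1282 CPM) lay within GK5a (1203 to 2028 CPM). Snhg4 stayed lower in GK5b than in GK5a within unclassed wells (49.3 and 80.1 against 126 to 163 CPM) and within goblet wells (11.7 and 12.9 against 27.6 to 48.0 CPM).

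Rpph1 in picked wells was found in most classes. A barcode was present in 9 of 23 Paneth, 23 of 83 goblet, 4 of 12 enteroendocrine, 9 of 50 enterocyte and 99 of 311 unclassed wells. It was present in 0 of 21 immune wells, all from 1 library and with a median depth of 2160 transcripts, where 0 of 65595 transcripts allows up to 45.7 CPM, above the 43.0 CPM of that whole library. It was present in 3 of 32 stem-marker wells. Picked wells with Rpph1 were deeper than those without, with medians of 4736 and 3143 transcripts, and had 26956 and 23592 CPM of Rn45s in the median well.

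Across wells of a library, Rn45s and Malat1 varied together, with a mean Pearson r of 0.351 over 10 libraries (0.199 to 0.546, above 0 in 10 of 10). Snhg3 and Snhg4 did so more weakly (mean r 0.198, above 0 in 9 of 10). Rn45s ran against both hosts, with mean r of -0.141 for Snhg3 and -0.127 for Snhg4, below 0 in 10 of 10 libraries. These r share the well's depth and cell type and come from sparse counts for the hosts, and are descriptions. Among 8195 genes found in at least 10% of wells, those most like Rn45s were Gm17821 (mean r 0.277), A630089N07Rik (0.276) and Lars2, the mitochondrial leucyl-tRNA synthetase (0.266). Those most like Malat1 were A630089N07Rik (0.283), Cdhr5, a brush border protocadherin (0.270), and Gm17821 (0.263). For Snhg3 they were Hspd1, a mitochondrial chaperone (0.257), Npm1, a nucleolar protein (0.245), and Ppia (0.237). For Snhg4 they were Npm1 (0.314), Cnn3 (0.298) and Cdca7 (0.297), which was on the stem marker list. For Rpph1, over 6 libraries, they were Tmem38b (0.189), Gm20594 (0.159) and Tbl3 (0.151), but 3 of those libraries held 3, 1 and 1 Rpph1 barcodes, so that these r rest on few wells.

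Genes that work with the 5 RNAs or lie beside them were then counted, from lists made with earlier results known. Between picked and sorted libraries, 31 of 139 tested genes of these lists were higher and 14 lower (limma, adjusted p under 0.05), 32.4% in all, against 32.2% of the 10427 genes tested (12.7% higher and 19.5% lower). The share called in either direction was thus at the background. By direction it was not: more listed genes were higher than lower, the reverse of all genes. That balance turned with the scaling, as given below. Other RNAs of the polymerase III or small structural kind were scarce: of 34 listed, 11 were in the tables and 2 could be tested, and both were higher. Rmrp, the RNA of the related enzyme RNase MRP, which cuts ribosomal RNA precursors, was at 31.8 ± 13.9 CPM in picked and 0.344 ± 0.408 CPM in sorted libraries (limma log2 fold change 4.76, adjusted p = 1.01e-05). Vaultrc5, a vault RNA, was at 51.9 ± 27.0 CPM in picked and 1.70 ± 1.24 CPM in sorted libraries (log2 fold change 4.52, limma adjusted p = 4.16e-05). Both were above every sorted library in each of the 3 picked libraries.

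On the lists of this paragraph, 27.3% to 41.7% of tested genes were called in either direction, beside 32.2% of all genes. Of the protein subunits of RNase P and RNase MRP, 3 of 10 tested were higher in picked libraries and 0 lower, with a median log2 fold change of 0.59 beside -0.15 over all genes. The 3 were Pop5, Rpp21 and Rpp25l, named after their values were seen. Of genes for ribosomal RNA synthesis and processing, 16 of 60 were higher and 3 lower (median 0.18), and Ddx10, an RNA helicase of ribosome assembly, fell (17.7 ± 4.70 against 37.0 ± 5.76 CPM, log2 fold change -0.79, limma adjusted p = 0.00773). On the list of snoRNA hosts, without Snhg3 and Snhg4, 5 of 12 were higher and 0 lower (median 0.49). That list also holds Mir22hg, a microRNA host. Of speckle and splicing genes, 1 of 35 was higher and 9 lower (median -0.23), with Rbm25, a splicing regulator, at 97.9 ± 13.5 CPM in picked and 273 ± 23.1 CPM in sorted libraries (log2 fold change -1.22, limma adjusted p = 6.56e-05). Of other nuclear long RNAs, 2 of 11 were higher and 1 lower. Xist, the RNA that coats the inactive X chromosome in female cells, was at 132 ± 20.3 CPM in picked and 0.269 ± 0.379 CPM in sorted libraries (log2 fold change 6.95, limma adjusted p = 1.01e-07). The sex of the mice is not in the labels. It may have changed with the way of collection, and the 2 could then not be told apart. With library totals in place of TMM, 20 listed genes were higher and 33 lower, and over all genes the calls were 837 higher and 3472 lower instead of 1323 and 2034.

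Of genes that lie beside the 5 RNAs, 2 of 10 tested were higher in picked libraries and 1 was lower, 30% in all beside 32.2% of all genes. Parp2, which begins 74 bases from the 5′ end of Rpph1 on the other strand, had 62.8 ± 15.8 CPM in picked and 72.0 ± 6.44 CPM in sorted libraries (log2 fold change 0.03, limma adjusted p = 0.880). Ccnb1ip1 and Rcc1 overlap Rpph1 and Snhg3 on the same strand, so reads could be given to either gene. Ccnb1ip1 was too low to test (0.811 CPM in picked and 1.86 CPM in sorted libraries). Rcc1, a regulator of the Ran GTPase, was higher in picked libraries (88.5 ± 25.6 against 69.7 ± 10.3 CPM, log2 fold change 0.57, limma adjusted p = 0.0216). That call was lost with totals (adjusted p = 0.207) and without picked library 2 (0.113). Against GK5b libraries alone its adjusted p was 0.0581, and in unclassed wells it was 0.114. Neat1, the paraspeckle RNA next to Malat1, had 75.6 ± 11.6 CPM in picked and 99.6 ± 12.6 CPM in sorted libraries (log2 fold change -0.14, limma adjusted p = 0.476).

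Frmd8, near Malat1, was lower in picked libraries (15.8 ± 6.32 against 43.5 ± 10.4 CPM, log2 fold change -1.19, limma adjusted p = 0.00426). Slc23a1, a vitamin C transporter near Snhg4, was higher (74.0 ± 28.7 against 27.1 ± 15.2 CPM, log2 fold change 1.86, limma adjusted p = 0.0172). The Slc23a1 call was lost without picked library 2 (0.0776) or 3 (0.0549), and those of Frmd8 (0.207) and Ddx10 (0.0755) against GK5b libraries alone. Trnau1ap, Phactr4, Matr3 and Paip2 did not pass, and Ltbp3 and Tigd3 were too low to test.

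Between GK5b and GK5a libraries, 2 of 134 listed genes were higher and 10 lower, 8.96% in all, against 13.1% of the 10331 genes tested (6.57% higher and 6.56% lower). Matr3, a nuclear matrix protein near Snhg4, was among the higher ones (183 ± 20.8 against 127 ± 10.2 CPM, log2 fold change 0.59, limma adjusted p = 0.0113). Neat1 did not pass (94.4 ± 19.1 against 102 ± 11.3 CPM, limma adjusted p = 0.892). On the list of snoRNA hosts, which also holds the microRNA host Mir22hg, 0 of 12 were higher and 4 lower. Their median log2 fold change was -0.56 beside 0.02 over all genes. Mir22hg, which hosts a microRNA (8.16 ± 1.93 against 18.6 ± 3.15 CPM), and Dancr (20.1 ± 12.3 against 39.8 ± 7.24 CPM) fell by 1.03 and 1.01 on the log2 scale (limma adjusted p = 0.0174 and 0.0388). Frmd8 fell as well (30.5 ± 0.728 against 48.6 ± 6.79 CPM, log2 fold change -0.58, limma adjusted p = 0.0488), and that call was lost without either GK5b library (0.302 and 0.200) and without GK5a library 2, 3 or 5 (0.0709 to 0.101). Slc23a1 fell most, to 7.68 ± 3.25 CPM in GK5b against 34.9 ± 8.82 CPM in GK5a libraries (log2 fold change -2.01, limma adjusted p = 5.14e-04). With GK5b library 1 left out, 0 listed genes were higher and 1 lower, and the calls of Matr3 (limma adjusted p = 0.0851), Mir22hg (0.0678) and Dancr (0.610) were lost. Without GK5b library 2 those of Matr3 (0.0791) and Mir22hg (0.173) were lost, and that of Dancr was lost without GK5a library 2, 3, 4 or 5 (0.0615 to 0.0834). In unclassed wells alone, chosen after seeing the data, Dancr (0.0743) and Slc23a1 (0.0623) did not pass, and with the mean of CPM per well Matr3 (0.150), Frmd8 (0.335) and Mir22hg (0.122) did not. With no filter on low genes Dancr (0.112), Frmd8 (0.0773) and Mir22hg (0.051) did not pass.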

How the data were processed

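Transcripts per gene and well were measured by CEL-seq2 in 10 plates of mouse crypt cells. Alignment used BWA (0.6.2-r126) and mm10, per the submitters' processing notes; which software counted the reads, and on which strand, is not given in the sources used here. Per the values themselves, the deposited numbers are count estimates of molecules per gene and well, not normalized: they map back to whole barcode counts, within 0.001, under a correction for molecules that share 1 of 4096 barcodes. The unit of the deposited tables was recorded as other, so no count model was run.

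Values of wells with at least 1000 endogenous transcripts were summed per library, or per library and marker class, scaled by TMM (trimmed mean of M values, computed in R 4.3.3) and compared on the log2(CPM + 1) scale in limma 3.58.1 (lmFit, eBayes with trend), with p-values Benjamini-Hochberg adjusted over all genes tested. Genes were kept where 3 libraries had 10 or more transcripts, scaled to the median library, and the sum was 15 or more. The class test had the library as a block, since classes come from the same libraries. The labels give the groups no shared replicate numbers. The procedure was tested on simulated data. Intervals and floors (3 counts) cover counting error only.

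The members, gene lists and tests were chosen with earlier results of these data known. Named were the 5 RNAs, the 3 called list genes with the largest change in each direction, their genomic neighbours, and the 3 genes most alike each RNA across wells; some items that this rule covers are not reported here. Alternatives changed the scaling, pseudocount, filter, well minimum, well weights, barcode counts, totals, class thresholds, block and libraries. Unclassed wells alone, a reference without stem-marker wells and a pseudocount of 100 CPM were chosen after seeing the data. No doublet caller was run.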

Additional observations from a re-analysis of the deposited data

Results flagged for a closer look

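Of 32 sets of 4 or more libraries, 2 held a value far from the others, at a limit that chance alone passes in about 5% of such sets. Rn45s was at 4087 CPM in GK5a library 3, against 2610 to 2953 CPM in the other 4 GK5a libraries. Malat1 was at 3337 CPM in the Paneth wells of GK5a library 1, against 1241 to 1529 CPM in those of the other 3 libraries, and its rise in Paneth wells passed the test without that library too (log2 fold change 1.33).

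The slope of log2 Malat1 share on log2 transcripts in unclassed wells had a mean of 0.30 over the GK5b libraries (0.16 and 0.44) and lay between -0.21 and -0.10 in the GK5a libraries. The difference was not tested.

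Wells with fewer than 1000 transcripts took part in no comparison. Rn45s was at 88322 CPM in such picked wells, against 15772 CPM in such sorted wells. Rpph1 was at 156 CPM in such picked wells, from 13 transcripts, against 4.23 CPM in such sorted wells, from 1 transcript.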

How the results depend on the processing

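Of the listed genes, 31 were higher and 14 lower in picked libraries, against 20 and 33 with library totals and 18 and 5 against GK5b libraries alone. Leaving out 1 library gave 18 to 32 higher, the lowest without picked library 2, and 10 to 17 lower. Between GK5b and GK5a, 2 higher and 10 lower became 4 and 4 with no filter and 1 and 1 in unclassed wells, and 1 was higher with the mean of CPM per well. Leaving out 1 library gave 0 to 3 higher and 1 to 13 lower, the lowest without GK5b library 1 for both, with 1 higher without GK5b library 2 and 6, 6 and 5 lower without GK5a library 3, 4 or 5. The 24 pairs of RNA and class gave 6 higher and 8 lower, and 13 lower with a pseudocount of 100 CPM; leaving out 1 library gave 5 to 7 higher and 6 to 8 lower. With no replicate block the class counts were 7 higher and 8 lower. No paired analysis was possible between plates because the groups share no replicate numbers.

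The mean Malat1 slope of -0.46 in GK5a libraries was -0.37 in wells of at least 2000 transcripts. Wells above the GK5a median of Rn45s were 98.3% (thinned) and 100% (unclassed) in picked and 81.5% and 90.2% in GK5b libraries. For Malat1 they were 31.8% (unclassed) in picked and 51.3% (thinned) in GK5b libraries. Leaving out 1 library gave 99.3% to 99.8% for Rn45s in picked and 84.2% to 88.0% in GK5b libraries, and 18.3% to 25.5% and 55.9% to 67.0% for Malat1.

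The direction turned for Frmd8 between GK5b and GK5a in unclassed wells (0.24), for the member share against transcripts per well of Snhg3 in GK5b without its library 1 (slopes -0.0474 to 0.497 over libraries left out), and of Snhg4 in picked libraries in wells of at least 2000 transcripts (-0.0535) and without picked library 3 (-0.025 to 0.189 over libraries left out). The cause was not tested. Depth limits what a count of 0 shows: for Rpph1 it allows up to 0.680 to 2.93 CPM in the sorted libraries without a barcode.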
